A study of Arabidopsis thaliana with 21 samples.

Results

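The effect of AXR3-1, a stabilized form of the auxin coreceptor AXR3, was compared between a line that makes it after heat and a line that makes it after estradiol in Arabidopsis thaliana root tips. The members were 12 of the 21 RNA-seq libraries of the series, 3 in each of 4 groups, chosen by genotype and treatment. The first group was HS:AXR3-1, a line with AXR3-1 behind a heat shock promoter, kept at 37 °C for 40 min and then left for 80 min to recover. Col-0, the wild type, given the same heat and recovery was its control. The third group was XVE:AXR3-1-RFP, given 5 µM estradiol for 2 h, and Col-0 given 5 µM estradiol for 2 h was its control. The genotype label names the tag RFP, while the series' design text describes the line as g1090::XVE>>AXR3-1-mCherry. For HS:AXR3-1 the labels mention no tag. The background of both lines is Col-0, and all seedlings were 5 days old. RNA of 50 tips, cut at 1 to 2 mm, went into each library, and the replicates are described as biological. Promoter, transgene, tag and treatment all differ between the lines, so they cannot be told apart in any difference between the effects. The series holds no library of either line without its heat or estradiol. Within a line, the effect of AXR3-1 thus cannot be told apart from other differences between that line and Col-0. In bulk root tips, fewer cells of a type and less RNA per cell cannot be told apart either.

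AXR3, also called IAA17, belongs to the Aux/IAA proteins, which sit on auxin response factors (ARFs) and keep them from activating their targets. Auxin joins an Aux/IAA protein to a TIR1/AFB receptor, and the Aux/IAA protein is then degraded. The axr3-1 mutation lies in the degron, so the protein persists when auxin is present. Many Aux/IAA genes are themselves auxin targets. In the root, auxin also acts on cell elongation and on root hair growth.

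The 12 libraries held 17.45 to 23.88 M estimated reads, and 19809 genes passed the low-count filter. Values per library are given in CPM, the reads of a gene scaled to the TMM-adjusted library size. A log2 effect is the line over its own Col-0 control from edgeR's quasi-likelihood fit, with its standard error (SE), and a gene is called at a Benjamini-Hochberg adjusted p under 0.05. Root tip genes were present in all 12 libraries. PLT1 and PLT2, regulators of the root stem cell niche, lay between 15.4 and 32.0 CPM and between 9.6 and 20.5 CPM, and the endodermal regulator SCR between 44.4 and 82.8 CPM. The niche gene WOX5 was low, at 0.372 to 3.3 CPM.

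Replicate 1 of HS:AXR3-1 stood apart from the other heated libraries. The mean level of 17 heat shock chaperones, as log2(CPM + 0.5), was 4.25, 7.14 and 9.3 in HS:AXR3-1 replicates 1, 2 and 3. The same mean was 7.7, 7.6 and 8.36 in the 3 libraries of heat-shocked Col-0. It ran between 2.86 and 3.46 in XVE:AXR3-1-RFP and between 3.01 and 3.73 in estradiol-treated Col-0. In HS:AXR3-1 replicate 1, 15 of the 17 chaperones lay below every heat-shocked Col-0 library, and 10 lay within or below the range of the estradiol libraries. In HS:AXR3-1 replicate 3, all 17 lay above every heat-shocked Col-0 library. The shares of all tested genes in these positions were not counted. HSP22.0, a small heat shock protein of the endoplasmic reticulum, had 11, 1048 and 2781 CPM in HS:AXR3-1 and 1273, 1365 and 1655 CPM in heat-shocked Col-0. Across all genes, the library closest to HS:AXR3-1 replicate 1 was estradiol-treated Col-0 replicate 1, with a correlation of 0.976. The comparisons were therefore repeated without this library, and the repeated values stand beside the results or in the account of the repeat.

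The targeted gene was higher in both lines than in their controls. AXR3 had 181, 298 and 861 CPM in HS:AXR3-1, against 93.5, 149 and 143 CPM in heat-shocked Col-0. It had 734, 939 and 1185 CPM in XVE:AXR3-1-RFP, against 175, 146 and 146 CPM in estradiol-treated Col-0. Every library of each line lay above every library of its control, and the counts join native and transgene reads. The log2 effect was 1.8 (SE 0.38, adjusted p = 0.199) in HS:AXR3-1 and 2.61 (SE 0.39, adjusted p = 0.000971) in XVE:AXR3-1-RFP, and DESeq2 called the heat-driven effect too (adjusted p = 0.0012). Without HS:AXR3-1 replicate 1, the heat-driven effect was 2.17 and was called, with an adjusted p of 0.0132. Without HS:AXR3-1 replicate 3, the library of highest AXR3 level in that line, it was 0.9. These were the highest and lowest effects in the 12 edgeR fits that left out a single library, and the adjusted p ran from 0.0132 to 0.659. The difference of the effects on AXR3 was -0.82 (SE 0.52, adjusted p = 1).

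**Figure D1:**
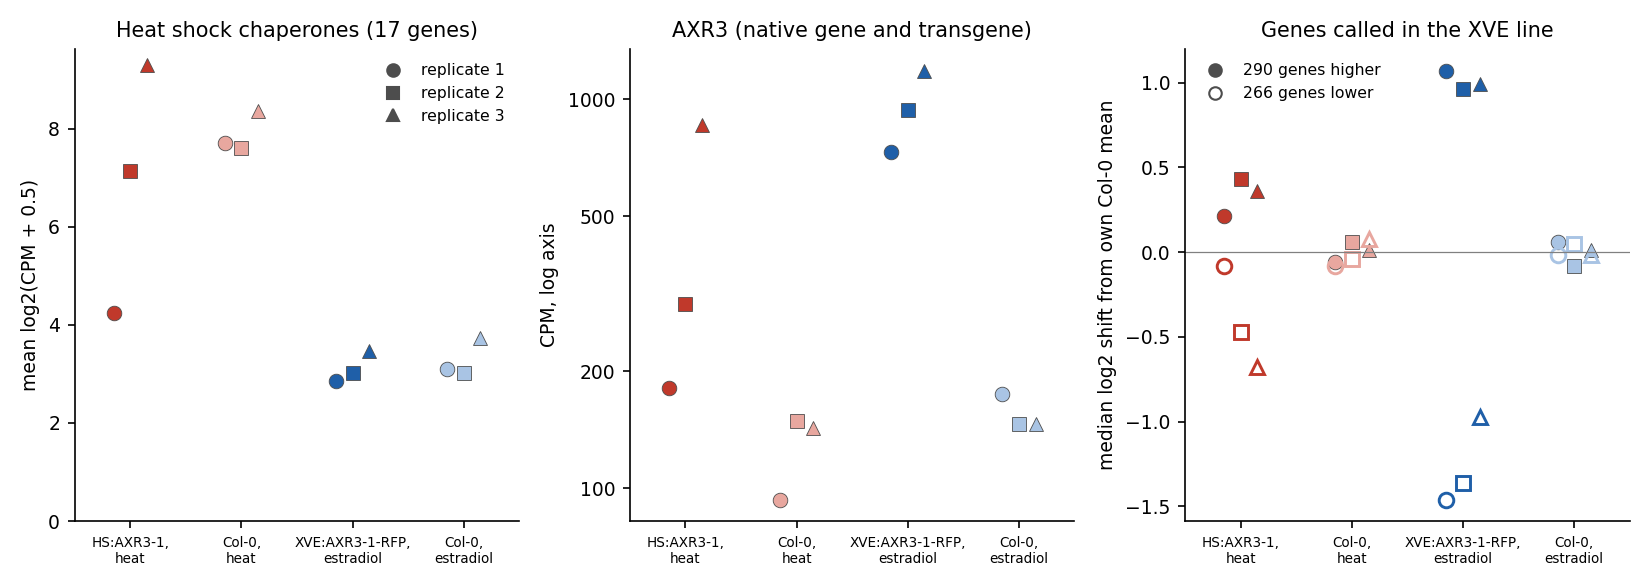
Level of the heat shock chaperones (mean log2(CPM + 0.5) of 17 genes), of AXR3 (CPM, log axis) and of the genes called in the estradiol-driven line (median log2 shift from the mean of the library's own Col-0 control), with 1 point per library. Replicate 1 of HS:AXR3-1 had a chaperone mean of 4.25, against 7.6 to 8.36 in heat-shocked Col-0, and the lowest AXR3 level of its line.

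By edgeR without a replicate block, the AXR3-1 effect differed between the lines in 5 genes. ACS11, UNE11 and AT2G22460 fell in XVE:AXR3-1-RFP, and AT1G19380 and AT2G47550 rose there, and none of the 5 was called in HS:AXR3-1. The difference of effects, heat-driven minus estradiol-driven, was called higher in 3 genes (0.0151% of those tested) and lower in 2 genes (0.0101%). With no adjustment, 393 genes were higher and 317 lower at p under 0.05. The difference was called in 0 genes in both directions without replicate 1 of HS:AXR3-1 or replicate 1 or 3 of heat-shocked Col-0. The same held without replicate 1 or 2 of XVE:AXR3-1-RFP or replicate 2 of estradiol-treated Col-0. Without replicate 3 of HS:AXR3-1, 29 genes were higher and 7 lower. With the replicate number as a block, which pairs the estradiol libraries, 31 genes were called higher (0.156%) and 20 lower (0.101%). A fit of the 12 libraries alone called 0 in both directions. The count of 5 thus depended on the fit.

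The 250 bases upstream of the annotated start are shown for 3 of the 5 genes, since they cover both directions of change and 2 of them hold a motif that ARFs bind. The sequences are from the RefSeq assembly TAIR10.1, 5′ to 3′ on the gene's strand. The submitters name TAIR10 and the files hold no coordinates, but 99.6% of the transcripts matched by name had the same length in both. Capitals mark the auxin response elements TGTCTC and TGTCGG, searched on both strands.
ACS11, chr4:4886712-4886961, plus strand: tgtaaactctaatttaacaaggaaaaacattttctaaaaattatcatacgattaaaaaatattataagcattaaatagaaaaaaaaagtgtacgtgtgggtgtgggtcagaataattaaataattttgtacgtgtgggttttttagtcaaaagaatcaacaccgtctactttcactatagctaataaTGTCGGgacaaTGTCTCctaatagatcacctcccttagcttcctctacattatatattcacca
AT2G47550, chr2:19508679-19508928, plus strand: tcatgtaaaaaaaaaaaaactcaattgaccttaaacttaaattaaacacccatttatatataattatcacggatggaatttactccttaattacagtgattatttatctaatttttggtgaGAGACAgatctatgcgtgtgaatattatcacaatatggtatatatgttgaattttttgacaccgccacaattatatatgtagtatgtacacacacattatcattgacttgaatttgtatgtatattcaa
UNE11, chr4:32498-32747, plus strand: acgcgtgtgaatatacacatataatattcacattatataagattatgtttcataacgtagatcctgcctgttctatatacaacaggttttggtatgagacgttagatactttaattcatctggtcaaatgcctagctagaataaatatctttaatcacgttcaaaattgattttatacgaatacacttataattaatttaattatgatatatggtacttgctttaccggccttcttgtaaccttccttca
ACS11 holds TGTCGG and TGTCTC, AT2G47550 holds the reverse complement of TGTCTC, and UNE11 holds neither in this window. AT1G19380 and AT2G22460, which are not shown, hold neither element, so 2 of the 5 genes hold one. TGTCTC was found upstream of 10.6% of all tested genes, 6.21% of the genes higher in the estradiol-driven line and 21.1% of those lower in it. TGTCGG was found upstream of 4.59%, 1.38% and 10.2% of the same groups. The heat shock element GAANNTTC was found upstream of 9.32%, 12.4% and 6.39%, and TTCNNGAA upstream of 7.56%, 8.62% and 4.51%. Neither heat shock element was found upstream of the 5 genes.

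ACS11 encodes a synthase of ACC, the precursor of the hormone ethylene. It had 2.04, 1.14 and 0.977 CPM in HS:AXR3-1, against 0.944, 1.03 and 1.01 CPM in heat-shocked Col-0. It had 0.119, 0.299 and 0.368 CPM in XVE:AXR3-1-RFP, against 2.33, 3.45 and 2.1 CPM in estradiol-treated Col-0. The groups overlapped in the heat experiment and were apart in the estradiol experiment, where the line's libraries held 2 to 8 estimated reads each and those of Col-0 47 to 78. The log2 effect was 0.48 (SE 0.35) in HS:AXR3-1 and -3.26 (SE 0.41, adjusted p = 0.000278) in XVE:AXR3-1-RFP, and the difference was 3.74 (SE 0.54, adjusted p = 0.0329). The control levels differed too, since ACS11 was lower in heat-shocked Col-0 than in every estradiol-treated Col-0 library. Leaving out single libraries moved the difference between 3.34 and 4.06 and ended the call in 7 of 12 cases.

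UNE11 is annotated as a member of the plant invertase and pectin methylesterase inhibitor family, whose proteins act on enzymes of the cell wall and of sugar metabolism. It had 52.6, 26 and 30.9 CPM in HS:AXR3-1, against 51, 75.8 and 70.1 CPM in heat-shocked Col-0. It had 2.9, 2.19 and 8.5 CPM in XVE:AXR3-1-RFP, against 72.9, 65.1 and 67.8 CPM in estradiol-treated Col-0. Replicates 2 and 3 of HS:AXR3-1 lay below all heat-shocked Col-0 libraries and replicate 1 lay among them. The log2 effect was -0.85 (SE 0.34, adjusted p = 1) in HS:AXR3-1 and -3.9 (SE 0.39, adjusted p = 8.56e-05) in XVE:AXR3-1-RFP. The difference was 3.06 (SE 0.5, adjusted p = 0.0389), and the call ended in 9 of the 12 fits that left out a single library.

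AT2G47550, annotated with the same superfamily name, rose in the estradiol-driven line, and whether it acts as an inhibitor was not tested. It averaged 23.2 ± 8.92 CPM (SD, n = 3) in HS:AXR3-1, with 33.5 CPM in the highest library, against 24, 29.6 and 19 CPM in heat-shocked Col-0. It had 97.2, 89.5 and 105 CPM in XVE:AXR3-1-RFP, against 30.1, 28 and 29.2 CPM in estradiol-treated Col-0. The heated groups overlapped and the estradiol groups lay far apart. The log2 effect was -0.06 (SE 0.21) in HS:AXR3-1 and 1.74 (SE 0.21, adjusted p = 0.000243) in XVE:AXR3-1-RFP, and the difference of -1.8 (SE 0.29) had an adjusted p of 0.0389. The call ended in 10 of the 12 fits without a single library.

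AT1G19380, annotated as a protein with a DUF1195 domain, had 1.34, 3.12 and 2.14 CPM in HS:AXR3-1, against 3.87, 1.89 and 3.02 CPM in heat-shocked Col-0. It averaged 15.8 ± 3.86 CPM (SD, n = 3) in XVE:AXR3-1-RFP, with 12.7 CPM in the lowest library, against 3.72, 2.35 and 2.36 CPM in estradiol-treated Col-0. Its log2 effect was -0.41 (SE 0.31) in HS:AXR3-1 and 2.49 (SE 0.31, adjusted p = 0.000271) in XVE:AXR3-1-RFP, with a difference of -2.9 (SE 0.43, adjusted p = 0.0329). AT2G22460, annotated as a MIZU-KUSSEI-like protein, had 2.46, 2.58 and 1.35 CPM in HS:AXR3-1, against 2.55, 3.4 and 3.08 CPM in heat-shocked Col-0. It had 0.296, 0.0996 and 0.138 CPM in XVE:AXR3-1-RFP, from 2 to 5 estimated reads each, against 4.26, 3.1 and 1.78 CPM in estradiol-treated Col-0. Its log2 effect was -0.5 (SE 0.35) in HS:AXR3-1 and -4.09 (SE 0.44, adjusted p = 0.000105) in XVE:AXR3-1-RFP, with a difference of 3.59 (SE 0.56, adjusted p = 0.0389). For both genes the heated groups overlapped and the estradiol groups did not. The call ended in 7 of 12 fits without a single library for AT1G19380 and in 10 of 12 for AT2G22460.

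**Figure D2:**
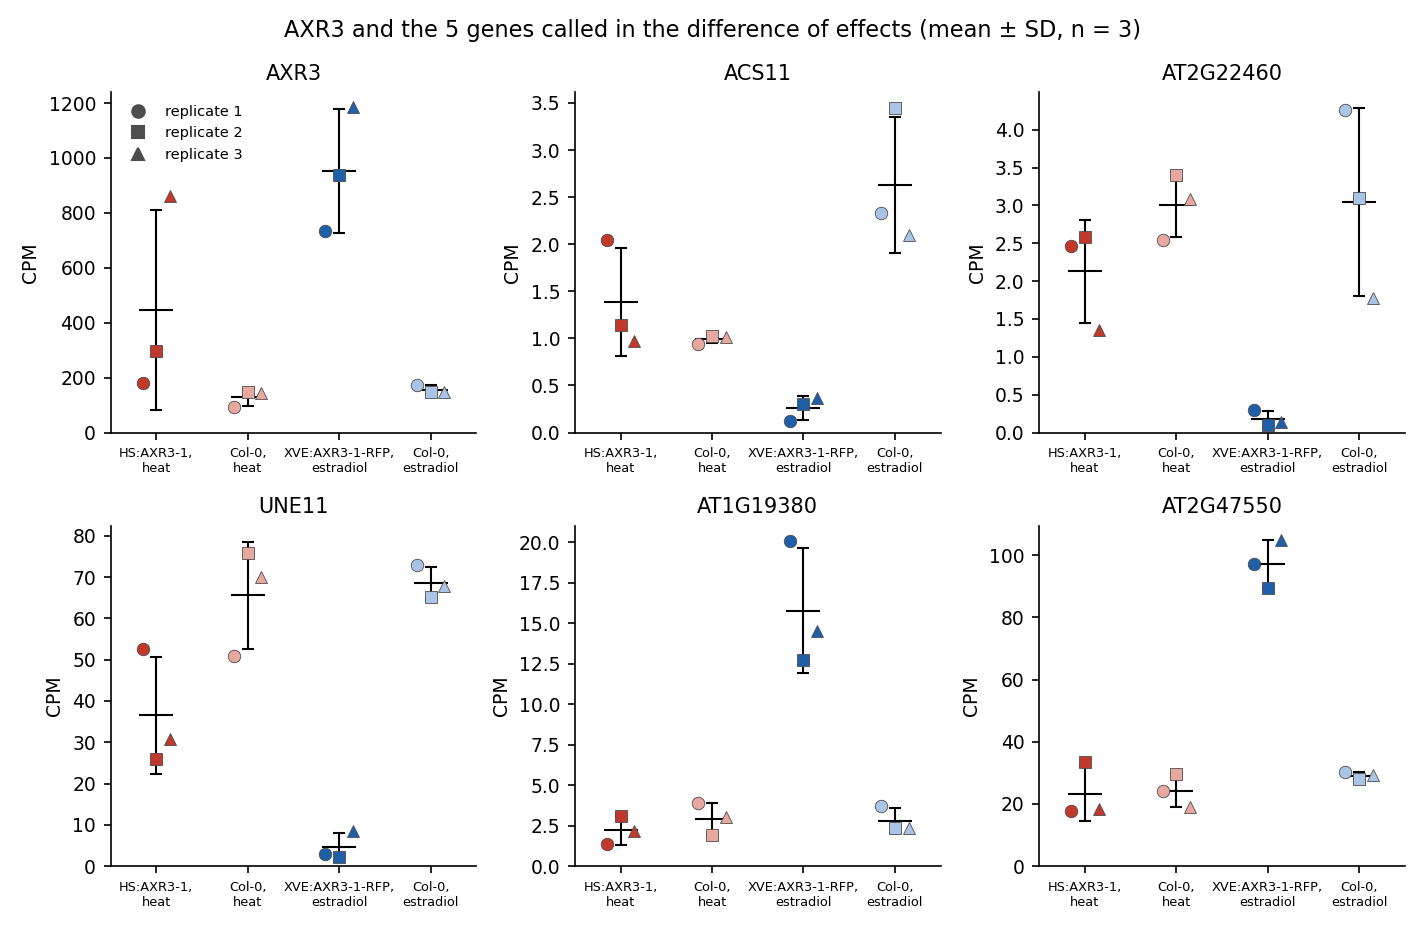
CPM of AXR3 and of the 5 genes called in the difference of effects, 1 point per library, with the mean and SD of the 3 libraries of each group. In XVE:AXR3-1-RFP, AT2G47550 lay at 89.5 to 105 CPM and UNE11 at 2.19 to 8.5 CPM, while HS:AXR3-1 overlapped its heat-shocked Col-0 control in all 5 genes.

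Without replicate 1 of HS:AXR3-1, none of the 19988 genes tested was called in the difference (0% in either direction), and with no adjustment 231 were higher and 261 lower at p under 0.05. The 5 differences kept their signs and had adjusted p-values of 0.0599 to 0.0879. ACS11 had a difference of 3.34, UNE11 of 2.69, AT2G22460 of 3.47, AT1G19380 of -2.65 and AT2G47550 of -1.65. DESeq2 without the same library called 20 genes higher and 7 lower, and DESeq2 with all libraries called 44 higher and 11 lower. The number of genes whose effect differs between the lines thus depended on the count model and on single libraries.

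Few genes changed alike in both lines by edgeR without a block when all libraries were used. In HS:AXR3-1 5 genes were higher (0.0252% of those tested) and 0 were lower (0%), with 518 higher and 320 lower at p under 0.05 before adjustment and 23 higher and 12 lower by DESeq2. In XVE:AXR3-1-RFP 290 genes were higher (1.46%) and 266 lower (1.34%). These counts were 130 and 138 without XVE:AXR3-1-RFP replicate 1, 199 and 151 without its replicate 2, 106 and 167 without estradiol-treated Col-0 replicate 2, and 161 and 173 without its replicate 3. With the replicate number as a block, which pairs the estradiol libraries, the counts in XVE:AXR3-1-RFP were 828 higher (4.18%) and 661 lower (3.34%), and they included all 556 genes of the unblocked fit. In the fit without a block, 3 genes were called in both lines, all higher. No gene was called there in opposite directions or in HS:AXR3-1 together with the difference. DESeq2 called 16 genes alike higher and 10 alike lower, and the blocked fit 48 and 18. With the block, HS:AXR3-1 had 63 genes higher and 23 lower. DESeq2 and the blocked fit called 0 opposite genes too, and called 2 and 4 genes in HS:AXR3-1 and the difference alone. At an unadjusted p under 0.05 in both lines without a block, 408 genes had the same sign and 5 opposite signs.

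The 3 genes raised in both lines encode proteins of little known function. AT5G18460, annotated as a carboxyl-terminal peptidase with a DUF239 domain, had 30.7, 35.3 and 33.9 CPM in HS:AXR3-1, against 19.6 to 20.5 CPM in the 3 heat-shocked Col-0 libraries. It had 49.8, 53.8 and 43.7 CPM in XVE:AXR3-1-RFP, against 25.1, 21.7 and 24.3 CPM in estradiol-treated Col-0. Neither pair of groups overlapped, and the log2 effects were 0.73 (SE 0.12, adjusted p = 0.0382) in HS:AXR3-1 and 1.05 (SE 0.12, adjusted p = 0.000131) in XVE:AXR3-1-RFP. AT2G40095, annotated as related to alpha/beta hydrolases, had 8.57, 8.58 and 8.93 CPM in HS:AXR3-1, against 4.2, 4 and 5.32 CPM in heat-shocked Col-0. It had 16.3, 15.9 and 19.9 CPM in XVE:AXR3-1-RFP, against 9.71, 8.68 and 12.3 CPM in estradiol-treated Col-0. Its log2 effects were 0.95 (SE 0.15, adjusted p = 0.0375) in HS:AXR3-1 and 0.76 (SE 0.15, adjusted p = 0.00632) in XVE:AXR3-1-RFP. AT5G26270, uncharacterized, had 9.54, 6.64 and 5.67 CPM in HS:AXR3-1, against 2.41, 1.29 and 2.07 CPM in heat-shocked Col-0. It had 4.86, 5.68 and 5.61 CPM in XVE:AXR3-1-RFP, against 2.33, 2.13 and 2.41 CPM in estradiol-treated Col-0. Its log2 effects were 1.92 (SE 0.3, adjusted p = 0.0375) in HS:AXR3-1 and 1.23 (SE 0.3, adjusted p = 0.0309) in XVE:AXR3-1-RFP. In all 3 genes replicate 1 of HS:AXR3-1 lay above every heat-shocked Col-0 library, like the other libraries of its line. In the fits that left out a single library, the heat-driven call ended in 8 of 12 for AT2G40095, 10 of 12 for AT5G18460 and 11 of 12 for AT5G26270.

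The other calls could not be sorted into a shared or a line-specific change, because the gene was called in a single line and the difference was not called. Of these 550 genes, 548 were called in XVE:AXR3-1-RFP and 2, MRD1 and AT5G50630, in HS:AXR3-1. Both fall outside the rule for named genes and are named because they complete the count. Over the 548 genes, the median size of the log2 effect was 1.19 in XVE:AXR3-1-RFP, and the median SE of the difference was 0.34. At an unadjusted p under 0.05 the difference passed in 320 of the 548 genes, in each with less change in HS:AXR3-1 in the direction of XVE:AXR3-1-RFP. Since the genes were chosen by a large estradiol-driven effect, some of that excess follows from the choice.

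The direction of the effects was shared for most genes called in the estradiol-driven line, which is a comparison between libraries that the lines do not share. Of the 290 genes higher in XVE:AXR3-1-RFP, 269 (92.8%) had a higher level in HS:AXR3-1 than in heat-shocked Col-0, with a median log2 effect of 0.34 there and 1.02 in XVE:AXR3-1-RFP. Of the 266 lower genes, 241 (90.6%) were lower in HS:AXR3-1, with medians of -0.38 and -1.41 in HS:AXR3-1 and XVE:AXR3-1-RFP. Among all tested genes, 57.7% had the same sign. Without replicate 1 of HS:AXR3-1, the numbers were 275 (94.8%, median 0.39) and 250 (94%, median -0.6), and the share among all tested genes was 61.3%.

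The order of size was the other way round when genes were chosen on the heat-driven line. Of the 518 genes higher in HS:AXR3-1 at an unadjusted p under 0.05, 441 (85.1%) were higher in XVE:AXR3-1-RFP, and the median log2 effect was 0.62 in HS:AXR3-1 and 0.42 in XVE:AXR3-1-RFP. Of the 320 lower genes, 282 (88.1%) were lower in XVE:AXR3-1-RFP, with medians of -0.71 in HS:AXR3-1 and -0.59 in XVE:AXR3-1-RFP. Across the 19809 genes, which are not independent replicates, Pearson's correlation of the effects was 0.316 and Spearman's was 0.272.

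Single libraries of the heat-driven line ranged widely in these genes. The median log2 shift from the mean of the own Col-0 control was 0.21, 0.43 and 0.36 in HS:AXR3-1 replicates 1, 2 and 3 for the 290 higher genes, against 1.07, 0.96 and 0.99 in XVE:AXR3-1-RFP. For the 266 lower genes it was -0.08, -0.47 and -0.68 in HS:AXR3-1, against -1.46, -1.36 and -0.97 in XVE:AXR3-1-RFP. Replicate 1, with the lowest AXR3 and chaperone levels of its line, also had the smallest shift in both sets, and the part of the heat response in this was not tested. The median SD per gene on the log2 scale was 0.262 in HS:AXR3-1 (0.177 without replicate 1), 0.19 in heat-shocked Col-0, 0.222 in XVE:AXR3-1-RFP and 0.209 in estradiol-treated Col-0.

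**Figure D3:**
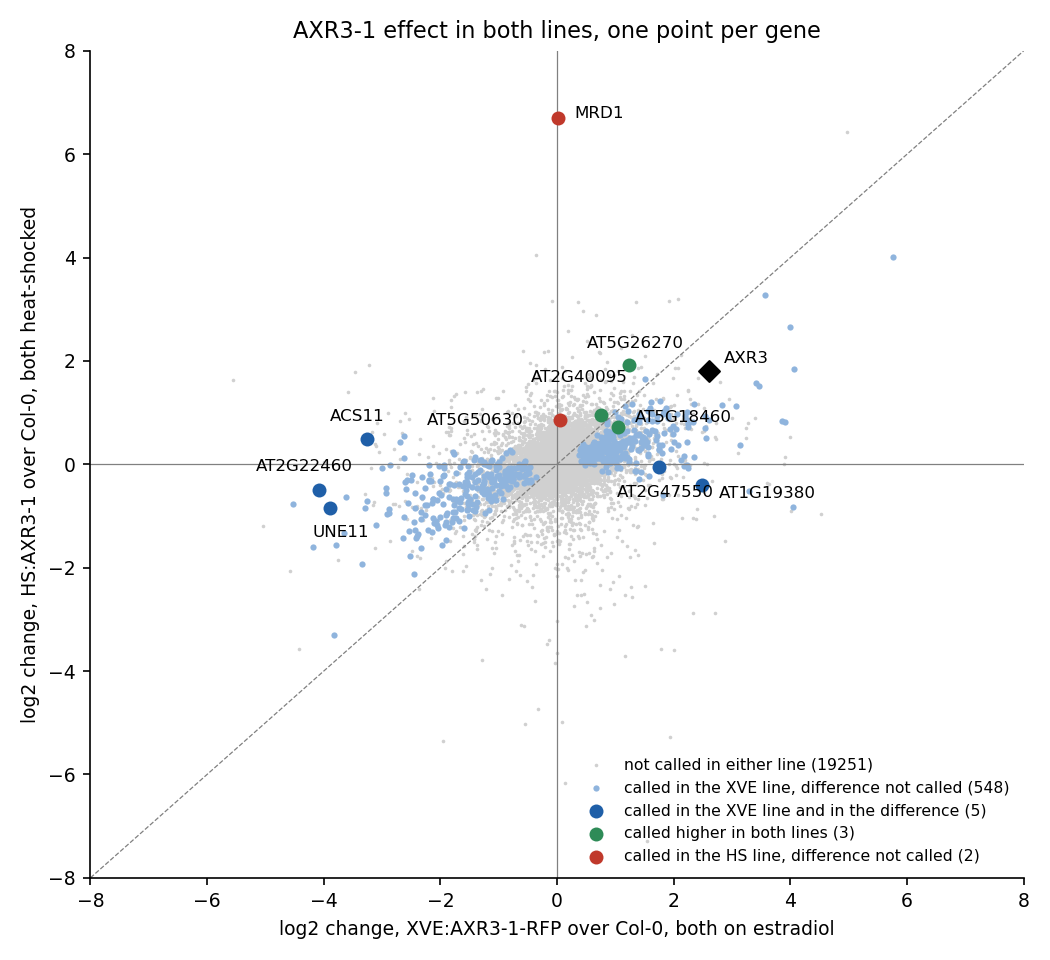
Log2 effect of AXR3-1 in the estradiol-driven line (horizontal) and in the heat-driven line (vertical), 1 point per tested gene, with colours for the calls, a dashed line of equal effects and 2 genes outside the axes. The 548 genes called in XVE:AXR3-1-RFP alone with no call in the difference (light blue) lie mostly in the quadrants of equal sign and nearer to the horizontal axis, and the 5 genes called in the difference had heat-driven effects between -0.85 and 0.48.

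The known auxin genes were then read by role, from lists of pathway members. In XVE:AXR3-1-RFP 1.46% of all tested genes rose and 1.34% fell, or 4.18% and 3.34% with the replicate block, and the counts of members stand beside these shares. Of the 448 tested list members, edgeR without a block called 0 in HS:AXR3-1 with all libraries and only ACS11 in the difference. DESeq2 called 4 lower in HS:AXR3-1, namely ARF10, ARF16, IAA7 and TAA1, where it called 0.0976% of all genes higher and 0.0509% lower. In the difference DESeq2 called 8 members higher, ACS2, ACS11, GH3.5, IAA2, IAA16, PIN3, PIN7 and SAUR78, and 1 lower, ARL, where it called 0.212% of all genes higher and 0.053% lower. Same-numbered libraries matched best for every replicate of the estradiol experiment, but not for HS:AXR3-1 replicate 1. The replicate block gave 8 members higher in the difference, ACS2, ACS11, CASP5, GA3OX1, IAA2, PIN7, SAUR78 and XTH4, and 1 lower, ARGOS, beside 0.156% and 0.101% of all genes. Only ACS11 was thus called in the difference by each of these models. For the other members named for the difference, the call depended on the model.

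The Aux/IAA genes are early auxin targets that encode the coreceptors. Of 26 tested members other than AXR3, 12 fell in XVE:AXR3-1-RFP and none rose, where 1.34% of all genes fell. With the replicate block 13 fell and 1, IAA28, rose. The median log2 effect over the members was -0.21 in HS:AXR3-1 (-0.35 without replicate 1) and -0.94 in XVE:AXR3-1-RFP, beside 0.02 and -0.01 over all tested genes. IAA16, a close relative of AXR3, had 260, 126 and 78.5 CPM in HS:AXR3-1, against 191, 241 and 247 CPM in heat-shocked Col-0. It had 40.8, 41.3 and 95 CPM in XVE:AXR3-1-RFP, against 315, 332 and 310 CPM in estradiol-treated Col-0. Replicates 2 and 3 of HS:AXR3-1 lay below their control and replicate 1 above it. IAA2 had 41.7, 34 and 26.6 CPM in HS:AXR3-1, against 44.5, 39.9 and 50.1 CPM in heat-shocked Col-0. It had 16.5, 13.3 and 13 CPM in XVE:AXR3-1-RFP, against 55.2, 54.2 and 42.7 CPM in estradiol-treated Col-0. Its difference of 1.44 (SE 0.26) missed the threshold with an adjusted p of 0.0587, and was called with the replicate block (adjusted p = 0.0289) and by DESeq2 (adjusted p = 0.000122). IAA1 had log2 effects of -0.84 (SE 0.3, adjusted p = 0.94) in HS:AXR3-1 and -2.44 (SE 0.32, adjusted p = 0.000434) in XVE:AXR3-1-RFP. IAA7, another close relative of AXR3, was nearer in both lines, with -0.31 in HS:AXR3-1 (adjusted p = 0.536, or 0.0155 by DESeq2) and -0.44 in XVE:AXR3-1-RFP (adjusted p = 0.0048), and its difference was 0.13 (SE 0.11). IAA26 and IAA28 were not called in either line without the block.

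Genes that inactivate auxin had low medians in both lines. Over 6 tested members the median log2 effect was -0.66 in HS:AXR3-1 (-0.75 without replicate 1) and -1.34 in XVE:AXR3-1-RFP. Only GH3.5, which conjugates auxin to amino acids, was called, with 14, 13.3 and 7.21 CPM in HS:AXR3-1, against 7.55, 12.9 and 10.6 CPM in heat-shocked Col-0. It had 4.21, 4.23 and 6.48 CPM in XVE:AXR3-1-RFP, against 10.3, 16 and 13.2 CPM in estradiol-treated Col-0. With the replicate block, 5 of the 6 fell in XVE:AXR3-1-RFP.

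Genes of auxin synthesis had high medians, 0.51 in HS:AXR3-1 (0.64 without replicate 1) and 1.71 in XVE:AXR3-1-RFP over 9 members. YUC8, a flavin monooxygenase of the last step, had 13.8, 30.5 and 37.5 CPM in HS:AXR3-1, against 16.9, 17.2 and 15.4 CPM in heat-shocked Col-0. It had 63.1, 68.7 and 46 CPM in XVE:AXR3-1-RFP, against 13.7, 13.2 and 10.7 CPM in estradiol-treated Col-0. YUC5 also rose in XVE:AXR3-1-RFP, by 3.06 on the log2 scale, and had 1.12 in HS:AXR3-1. TAA1, the aminotransferase of the step before, went the other way in both lines. It had 21.1, 15.2 and 13.1 CPM in HS:AXR3-1, against 28.5, 31 and 47.6 CPM in heat-shocked Col-0, and 8.71, 9.36 and 10.2 CPM in XVE:AXR3-1-RFP, against 32.2, 39.5 and 34.7 CPM in estradiol-treated Col-0. Every library of each line lay below every library of its control, and the log2 effects were -1.11 (SE 0.21, adjusted p = 0.122, or 0.000937 by DESeq2) in HS:AXR3-1 and -1.91 (SE 0.21, adjusted p = 0.000125) in XVE:AXR3-1-RFP.

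Among receptors and ARFs, 3 of 20 tested members fell in XVE:AXR3-1-RFP and none rose, and the medians were -0.01 in HS:AXR3-1 and -0.1 in XVE:AXR3-1-RFP. ARF10 and ARF16, which repress auxin targets, had close values in both lines. ARF16 had 32.1, 27.6 and 22.9 CPM in HS:AXR3-1, against 59.1, 47.8 and 48.9 CPM in heat-shocked Col-0. It had 9.66, 10.4 and 15.8 CPM in XVE:AXR3-1-RFP, against 26.1, 34.8 and 34.4 CPM in estradiol-treated Col-0, and neither pair of groups overlapped. Its log2 effects were -0.91 (SE 0.2, adjusted p = 0.236, or 0.0122 by DESeq2) in HS:AXR3-1 and -1.41 (SE 0.2, adjusted p = 0.000845) in XVE:AXR3-1-RFP, and its difference was 0.49 (SE 0.28, adjusted p = 1). ARF10 had -0.88 (adjusted p = 0.122, or 0.000937 by DESeq2) in HS:AXR3-1 and -1.16 (adjusted p = 0.000845) in XVE:AXR3-1-RFP. The receptor gene AFB1 had -0.37 in HS:AXR3-1 and -0.57 in XVE:AXR3-1-RFP, and was called in XVE:AXR3-1-RFP only.

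Of 19 tested auxin transport genes, 4 fell in XVE:AXR3-1-RFP and none rose. They were the carriers PIN3 and PIN7 and the kinases WAG1 and WAG2, which phosphorylate PIN carriers. PIN7 had 57.9, 52.2 and 39.8 CPM in HS:AXR3-1, against 40.8, 42.2 and 45.2 CPM in heat-shocked Col-0. It had 26.1, 23 and 30.2 CPM in XVE:AXR3-1-RFP, against 41.9, 52.3 and 52.1 CPM in estradiol-treated Col-0. The effect was 0.22 (SE 0.17) in HS:AXR3-1 and -0.88 (SE 0.17, adjusted p = 0.00596) in XVE:AXR3-1-RFP, and the difference of 1.11 (SE 0.24) had an adjusted p of 0.146, of 0.0349 with the replicate block and of 0.00748 by DESeq2. PIN3 had log2 effects of 0 in HS:AXR3-1 and -0.66 in XVE:AXR3-1-RFP, with a difference of 0.67 (SE 0.15, adjusted p = 0.231, or 0.0227 by DESeq2). WAG2 had 10.5, 1.88 and 1.95 CPM in HS:AXR3-1, against 9.06, 7.01 and 12.3 CPM in heat-shocked Col-0. It had 1.6, 1.59 and 1.29 CPM in XVE:AXR3-1-RFP, against 7.88, 14.8 and 11.1 CPM in estradiol-treated Col-0.

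SAUR genes are small auxin-induced genes of cell expansion. In XVE:AXR3-1-RFP 4 of 42 tested members rose (SAUR3, SAUR4, SAUR5 and SAUR58) and 2 fell (SAUR69 and SAUR78), beside 1.46% and 1.34% of all genes, or 8 and 4 beside 4.18% and 3.34% with the replicate block. The medians were 0.02 in HS:AXR3-1 and -0.33 in XVE:AXR3-1-RFP. SAUR3, SAUR4 and SAUR5 are neighbours in one family, so reads may be shared among them. SAUR78 had 51.8, 54.6 and 46.4 CPM in HS:AXR3-1, against 65, 51.3 and 49.9 CPM in heat-shocked Col-0. It had 14.8, 12.3 and 23 CPM in XVE:AXR3-1-RFP, against 46.6, 40.1 and 39.5 CPM in estradiol-treated Col-0, and its difference was called with the replicate block (adjusted p = 0.0414) and by DESeq2 (adjusted p = 0.00449). The auxin-regulated transcription factors had no call in either line, with medians of -0.15 in HS:AXR3-1 and -0.59 in XVE:AXR3-1-RFP over 21 members, and 5 fell in XVE:AXR3-1-RFP with the replicate block.

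**Figure D4:**
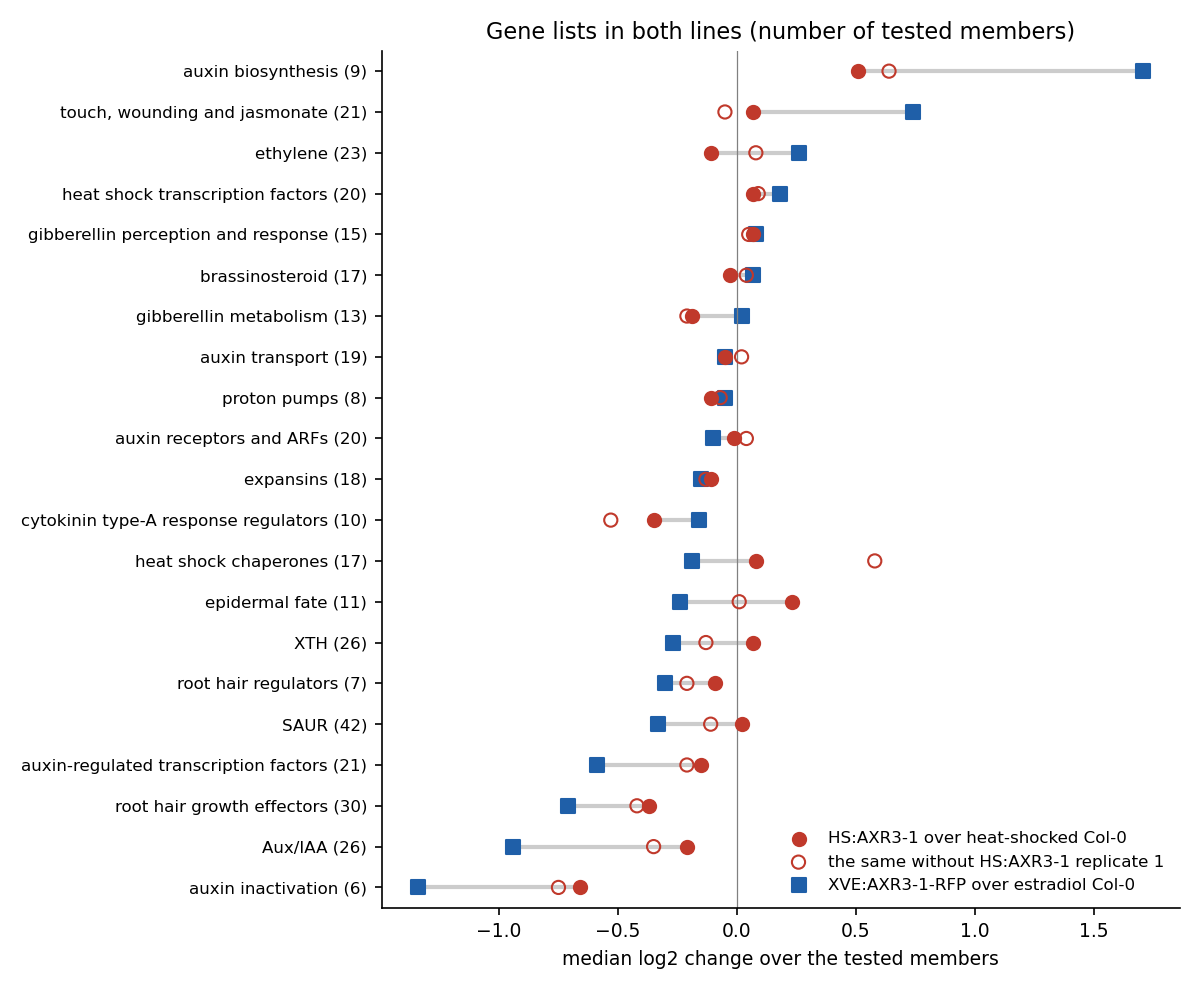
Median log2 effect over the tested members of each of 21 gene lists, in the heat-driven line with 3 replicates (filled circles) and without replicate 1 (open circles), and in the estradiol-driven line (squares). Auxin synthesis lay highest, at 0.51 in HS:AXR3-1 and 1.71 in XVE:AXR3-1-RFP, and auxin inactivation lowest, at -0.66 and -1.34 in the same lines.

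Of 7 regulators of root hair formation, 3 fell in XVE:AXR3-1-RFP and none rose, namely RHD6, RSL2 and RSL4. RHD6, a transcription factor that starts hair development, had 31, 22 and 19.8 CPM in HS:AXR3-1, against 41.4, 38.3 and 40.8 CPM in heat-shocked Col-0. It had 5.39, 9.41 and 14.7 CPM in XVE:AXR3-1-RFP, against 26, 21.7 and 28.7 CPM in estradiol-treated Col-0, and neither pair of groups overlapped. RSL4, a transcription factor that sets hair growth, had 16.2, 6.79 and 4.88 CPM in HS:AXR3-1, against 16, 16.5 and 25.7 CPM in heat-shocked Col-0. It had 2.78, 2.39 and 5.42 CPM in XVE:AXR3-1-RFP, against 15.2, 18.9 and 19.6 CPM in estradiol-treated Col-0. Its log2 effect was -1.06 (SE 0.38, adjusted p = 0.955) in HS:AXR3-1, -1.73 (adjusted p = 0.0997) there without replicate 1, and -2.33 (SE 0.4, adjusted p = 0.00338) in XVE:AXR3-1-RFP.

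Of 30 genes of root hair growth, 6 fell in XVE:AXR3-1-RFP and none rose, or 13 and none with the replicate block. The medians were -0.37 in HS:AXR3-1 and -0.71 in XVE:AXR3-1-RFP, and 26 of the 30 had the same sign in both lines. The 6 were COBL9, MRH6, RHS8, RHS11 and the expansins EXPA7 and EXPA18, which loosen the wall of growing hairs. EXPA7 had 59.8, 40.2 and 33.2 CPM in HS:AXR3-1, against 79.9, 82.9 and 128 CPM in heat-shocked Col-0. It had 9.78, 17.2 and 40.8 CPM in XVE:AXR3-1-RFP, against 67.5, 80.4 and 90.5 CPM in estradiol-treated Col-0, with log2 effects of -1.12 (adjusted p = 0.762) in HS:AXR3-1 and -1.81 (adjusted p = 0.009) in XVE:AXR3-1-RFP. Among all 18 tested expansins, EXPA17 alone rose in XVE:AXR3-1-RFP. It had 115, 296 and 350 CPM in HS:AXR3-1, against 170, 145 and 159 CPM in heat-shocked Col-0. It had 389, 340 and 338 CPM in XVE:AXR3-1-RFP, against 99.3, 51.1 and 108 CPM in estradiol-treated Col-0. Replicate 1 of HS:AXR3-1 lay below its control and replicates 2 and 3 above it.

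Of 23 tested ethylene genes, ACS6, ACS7, ACO4 and ARL rose in XVE:AXR3-1-RFP, and ACS2 and ACS11 fell. ACS7, an ACC synthase, had 0.973, 7.39 and 7.53 CPM in HS:AXR3-1, against 0.991, 2.24 and 5.15 CPM in heat-shocked Col-0. It had 18.6, 16.6 and 18 CPM in XVE:AXR3-1-RFP, against 3.32, 2.39 and 3.48 CPM in estradiol-treated Col-0. ACS2 was next to ACS11 in the size of its difference, 2.29 (SE 0.42, adjusted p = 0.061), which was called with the replicate block (adjusted p = 0.0452) and by DESeq2 (adjusted p = 0.000253). It had 5.56, 6.64 and 4.79 CPM in HS:AXR3-1, against 6.8, 6.45 and 7.61 CPM in heat-shocked Col-0, and 0.237, 0.398 and 0.781 CPM in XVE:AXR3-1-RFP, against 2.53, 3.81 and 2.41 CPM in estradiol-treated Col-0.

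In gibberellin metabolism, GA3OX1, which makes active gibberellin, was the only gene of 13 called without the block. It had 20.9, 24.8 and 20.3 CPM in HS:AXR3-1, against 25.6, 22 and 30.8 CPM in heat-shocked Col-0. It had 2.84, 4.78 and 5.93 CPM in XVE:AXR3-1-RFP, against 10.1, 14.1 and 13.3 CPM in estradiol-treated Col-0. Its level was thus higher in both heated groups than in both estradiol groups, and the difference of effects was 1.21 (SE 0.36, adjusted p = 0.665, or 0.0432 with the replicate block and 0.256 by DESeq2). In gibberellin perception and response, NPF3.1, a transporter of gibberellin, was the only called gene of 15. It had 1.57, 3.67 and 4.14 CPM in HS:AXR3-1, against 3.12, 3.01 and 3.64 CPM in heat-shocked Col-0. It had 5.39, 4.28 and 4.23 CPM in XVE:AXR3-1-RFP, against 0.991, 2.17 and 0.981 CPM in estradiol-treated Col-0.

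Among brassinosteroid genes, CYP90D1 of hormone synthesis rose in XVE:AXR3-1-RFP, and BZR1, a transcription factor of the pathway, and BAS1, which inactivates the hormone, fell. CYP90D1 had 8.25, 15.1 and 27.1 CPM in HS:AXR3-1, against 7.98, 9.21 and 8.56 CPM in heat-shocked Col-0. It had 50.4, 44.8 and 50.1 CPM in XVE:AXR3-1-RFP, against 12.8, 12.4 and 16.3 CPM in estradiol-treated Col-0. BAS1 had log2 effects of -0.35 (SE 0.27) in HS:AXR3-1 and -1.4 (SE 0.29, adjusted p = 0.0101) in XVE:AXR3-1-RFP. Of 21 genes of touch, wounding and jasmonate, WRKY33 and WRKY53 rose in XVE:AXR3-1-RFP. WRKY33, a transcription factor of stress responses, had 25.2, 22.7 and 24.4 CPM in HS:AXR3-1, against 9.16, 20.6 and 24.9 CPM in heat-shocked Col-0. It had 62.6, 82.3 and 80.7 CPM in XVE:AXR3-1-RFP, against 27, 30.2 and 24.2 CPM in estradiol-treated Col-0.

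Without the block, no heat shock chaperone, heat shock transcription factor, XTH, proton pump or type-A response regulator was called in either line or in the difference. With the replicate block, where 4.18% of all genes rose and 3.34% fell in XVE:AXR3-1-RFP, 4 of 9 genes of auxin synthesis rose and 1 fell, and 4 of 17 brassinosteroid genes rose and 3 fell. With the same block 6 of 23 ethylene genes rose and 3 fell, 1 of 18 expansins rose and 4 fell, and 2 of 26 XTH genes rose and 5 fell. Of 11 epidermal fate genes 1 rose and 3 fell, of 13 genes of gibberellin metabolism 1 rose and 2 fell, of 6 root cap markers 1 rose and 2 fell, and of 8 proton pump genes 2 fell. Single blocked calls, lower in 1 of 20 heat shock factors, 1 of 10 response regulators, 1 of 10 endodermis markers and 1 of 9 phloem markers and higher in 1 of 8 green tissue markers, are not read as results about those lists. The chaperones had a median log2 effect of 0.08 in HS:AXR3-1, 0.58 there without replicate 1, and -0.19 in XVE:AXR3-1-RFP. Of the epidermal fate genes, JKD alone was called without the block, lower in XVE:AXR3-1-RFP. Of the marker lists for division, endodermis, xylem, phloem, root cap, stem cell niche and green tissue, only the root cap list held calls without the block. BRN1 rose and BRN2 fell in XVE:AXR3-1-RFP. The summed level of the 6 root cap markers was 133 to 184 CPM in HS:AXR3-1, 100 to 158 CPM in heat-shocked Col-0, between 74.9 and 85.5 CPM in XVE:AXR3-1-RFP and 73.5 to 78.6 CPM in estradiol-treated Col-0. The 8 green tissue markers summed to 103 to 146 CPM, 97.4 to 144 CPM, 66.2 to 79.2 CPM and 65.2 to 76.3 CPM in the same order, and LHCB2.1 was at 0 in at least 1 library. Both sums were thus higher in the heated groups, and their part in the difference of effects was not tested.

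Without replicate 1 of HS:AXR3-1, more genes changed alike in both lines. HS:AXR3-1 then had 9 genes higher (0.045% of 19988) and 11 lower (0.055%), and XVE:AXR3-1-RFP had 367 higher (1.84%) and 331 lower (1.66%). Called in both lines were 7 genes higher and 11 lower, none opposite, and 682 genes were called in a single line with no call in the difference. Of the 5 genes called in HS:AXR3-1 with all libraries, 4 were called again. The 7 higher genes were AXR3, AT1G44608, AT2G40095, NADK1, AT3G26490, AT4G24050 and AT5G18460. The 11 lower genes were TAA1, AT1G73580, NPY2, CCR2, AT2G41970, AT3G05980, LGO, WAG2, TBL21, AT5G24880 and AT5G45580. Of these 18, AT2G41970, LGO and TBL21 fall outside the rule for named genes and complete the class.

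WAG2 had a heat-driven log2 effect of -2.29 without replicate 1 (adjusted p = 0.00799), against -0.97 (adjusted p = 1) with it. TAA1 had -1.33 (adjusted p = 0.0223) without replicate 1 and -1.11 with it. NPY2, of the NPH3 family that acts in auxin-dependent growth, had 40.1, 17.7 and 18.8 CPM in HS:AXR3-1, against 32.3, 38.3 and 31.7 CPM in heat-shocked Col-0. It had 18.7, 18.1 and 22.3 CPM in XVE:AXR3-1-RFP, against 47.4, 51.5 and 44.3 CPM in estradiol-treated Col-0. Replicate 1 lay above its control and replicates 2 and 3 below it. LGO, an inhibitor of cyclin-dependent kinases, had 51.2, 20.6 and 14.2 CPM in HS:AXR3-1, against 33.4, 39.6 and 36.7 CPM in heat-shocked Col-0. It had 5.81, 4.63 and 7.63 CPM in XVE:AXR3-1-RFP, against 42.8, 34.9 and 32.7 CPM in estradiol-treated Col-0, and its difference without replicate 1 was 1.53 (adjusted p = 0.0645). CCR2, related to the receptor kinase CRINKLY4, had 15.3, 8.23 and 8 CPM in HS:AXR3-1, against 20.4, 18.3 and 21.8 CPM in heat-shocked Col-0. It had 4.86, 4.43 and 5.1 CPM in XVE:AXR3-1-RFP, against 17.7, 18.9 and 16.4 CPM in estradiol-treated Col-0.

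Other genes of the class rose. AT3G26490, also of the NPH3 family, had 1.2, 1.98 and 5.25 CPM in HS:AXR3-1, against 0.85, 0.645 and 0.839 CPM in heat-shocked Col-0. It had 24.8, 23.7 and 13.1 CPM in XVE:AXR3-1-RFP, against 1.09, 1.46 and 1.11 CPM in estradiol-treated Col-0. NADK1, an NAD kinase that makes NADP, had 82.1, 154 and 159 CPM in HS:AXR3-1, against 81.9, 91.2 and 82 CPM in heat-shocked Col-0. It had 142, 167 and 131 CPM in XVE:AXR3-1-RFP, against 71.6, 70.5 and 69.7 CPM in estradiol-treated Col-0. AT4G24050, annotated with an NAD(P)-binding fold, had effects of 1.16 (adjusted p = 0.0205) in HS:AXR3-1 without replicate 1 and 1.72 (adjusted p = 0.000243) in XVE:AXR3-1-RFP with all libraries. Replicate 1 of HS:AXR3-1 lay among the heat-shocked Col-0 libraries for NADK1 and above them for AT3G26490 and AT4G24050.

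**Figure D5:**
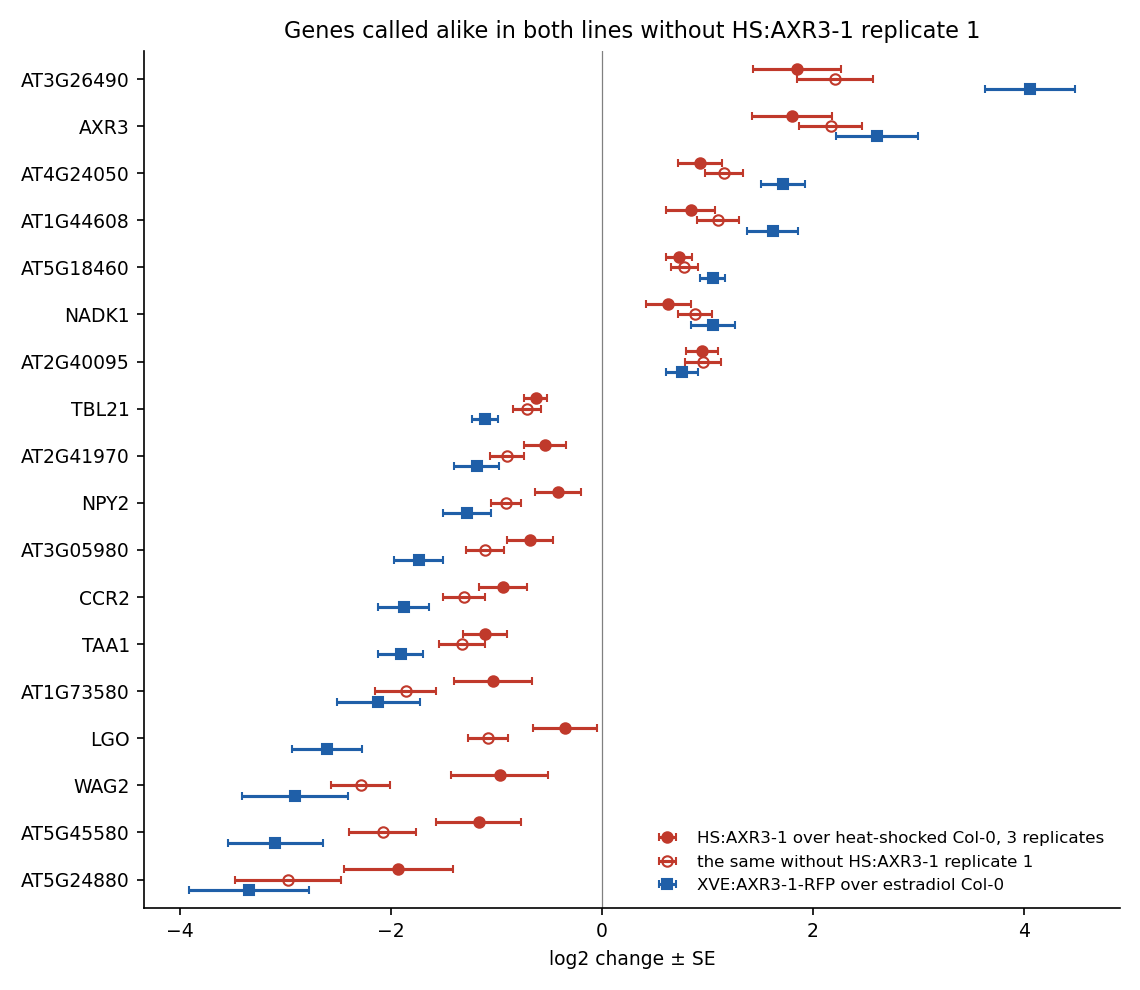
Log2 effect with its SE for the 18 genes called in both lines without HS:AXR3-1 replicate 1, in the heat-driven line with 3 replicates (filled circles) and without replicate 1 (open circles), and in the estradiol-driven line (squares). All 18 lie on the same side of 0 in both lines, and the heat-driven effect of WAG2 is -0.97 with replicate 1 and -2.29 without it.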

How the data were processed

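RNA from Arabidopsis root tips was sequenced, and groups and replicate numbers were taken from the labels. The expected counts (estimated counts of reads) were made by the authors with Salmon 1.3.0 and TAIR10, per the submitters' processing notes, and stand in the deposited files beside TPM, transcript length and effective length. The strand option is not given in the sources used here, so overlapping and antisense genes and near-identical paralogs are uncertain. The deposited TPM values served only to check that files were read correctly.

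Expected counts were summed by locus (27586 loci from 48268 transcripts) and rounded. edgeR 4.0.16 in R 4.3.3 fitted all 21 libraries of the 7 groups at once by quasi-likelihood, with TMM scaling, the default low-count filter and 14 residual degrees of freedom. Contrasts were HS:AXR3-1 minus heat-shocked Col-0, XVE:AXR3-1-RFP minus estradiol-treated Col-0, and their difference, each adjusted over all 19809 genes by the Benjamini-Hochberg method. A gene was alike or opposite when called in both lines, in a single line only when called there and in the difference, and otherwise undecided. Median log2 effects of all genes were 0.016 in HS:AXR3-1, -0.015 in XVE:AXR3-1-RFP and 0.023 in the difference. The default fit used no replicate block.

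Same-numbered libraries deviated together in the estradiol experiment, with correlations of 0.56, 0.49 and 0.7, so the numbers pair these libraries.

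Named genes were AXR3, up to 8 genes each way in the difference with a mean of at least 5 CPM in any group, up to 8 each way alike, up to 6 in a single line only, and 1 to 3 called members of each list with the smallest p of the difference. Other list members are named as examples of a count. The 12 libraries, the 28 lists (7 of them cell type markers; 541 of 563 entries matched a locus) and the rule were chosen with earlier results of these data known. Symbols, products, promoters and gene sequences came from RefSeq's TAIR10.1 tables. A BLAST search compared 47 named genes with all annotated genes. It found a match of at least 95% identity over at least 50% of the gene for 2 of them, MRD1 and AT5G50630. The matches of MRD1 were genes that overlap it in the genome, and the match of AT5G50630 was a copy elsewhere. Alternatives were DESeq2 1.42.0, median-of-ratios scaling, no filter, robust estimation, the 12 libraries alone, a replicate block, an adjusted p under 0.1, and leaving out each library. The fit was run on simulated data with the same spread per gene in all groups, no pairing and no outlying library. That run therefore cannot show how the fit handles those features.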

Additional observations from a re-analysis of the deposited data

Results flagged for a closer look

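The 5 genes called in the difference stood out because the AXR3-1 effect in HS:AXR3-1 and the effect in XVE:AXR3-1-RFP differed by a test of the difference itself. The log2 difference, HS:AXR3-1 effect minus XVE:AXR3-1-RFP effect, was 3.74 for ACS11, 3.59 for AT2G22460, 3.06 for UNE11, -2.9 for AT1G19380 and -1.8 for AT2G47550, each with an edgeR adjusted p between 0.0329 and 0.0389 over 19809 genes. In all 5 the libraries of XVE:AXR3-1-RFP lay on one side of every estradiol-treated Col-0 library, while those of HS:AXR3-1 overlapped heat-shocked Col-0. Without HS:AXR3-1 replicate 1, whose chaperone mean was 4.25 on the log2 scale against 7.14 and 9.3 in replicates 2 and 3, the adjusted p-values were 0.0599 to 0.0879. The part of promoter, tag, treatment and transgene level in these differences was not tested.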

How the results depend on the processing

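No result reversed under any alternative, and median-of-ratios scaling and robust estimation moved no call of a named gene. The counts depended on the model and on single libraries, and the cause was not tested. DESeq2 called 44 genes higher and 11 lower in the difference, 23 and 12 in HS:AXR3-1, 473 higher in XVE:AXR3-1-RFP, 16 and 10 alike, 2 in HS:AXR3-1 only and 53 in XVE:AXR3-1-RFP only. With the 12 libraries alone, which leaves fewer degrees of freedom, the difference had 0 and 0, HS:AXR3-1 0 higher, XVE:AXR3-1-RFP 186 and 148, 0 were alike higher, 0 in XVE:AXR3-1-RFP only and 334 undecided. Without the low-count filter, HS:AXR3-1 had 2 higher and 0 were alike higher. At an adjusted p under 0.1, 14 were higher in the difference, 1 was in HS:AXR3-1 only and 16 in XVE:AXR3-1-RFP only. DESeq2 without HS:AXR3-1 replicate 1, an alternative chosen after seeing the data, gave 20 and 7 in the difference, 44 and 99 in HS:AXR3-1, 543 and 451 in XVE:AXR3-1-RFP, 39 and 85 alike, 1 and 24 in a single line, and 864 undecided.

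In the heat experiment, HS:AXR3-1 replicates 1, 2 and 3 correlated with the same-numbered Col-0 by 0.09, 0.45 and 0.28. Replicates 2 and 3 correlated best with that library, while replicate 1 correlated best with Col-0 replicate 2 (0.23). Whether the numbers pair these libraries was thus not settled. With the replicate block, 31 genes were higher and 20 lower in the difference, 63 and 23 in HS:AXR3-1, 828 and 661 in XVE:AXR3-1-RFP, 48 and 18 alike, 4 in HS:AXR3-1 only, 45 in XVE:AXR3-1-RFP only and 1394 undecided. The block ended no call of a named gene in XVE:AXR3-1-RFP, and in HS:AXR3-1 it called AXR3 higher and ARF10, ARF16, ARF19, EXPA1, TAA1 and TBL21 lower.

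Leaving out each library in turn gave 0 to 29 higher and 0 to 7 lower in the difference, 0 to 13 and 0 to 11 in HS:AXR3-1, 106 to 367 and 138 to 331 in XVE:AXR3-1-RFP, 0 to 7 and 0 to 11 alike, 0 opposite, 0 to 2 in HS:AXR3-1 only, 0 to 34 in XVE:AXR3-1-RFP only and 269 to 682 undecided. The same direction in HS:AXR3-1 held in 255 to 275 of the 290 genes and 212 to 250 of the 266. Among the 2 genes of lowest level, ACS11 and AT2G22460, XVE:AXR3-1-RFP libraries held 2 to 8 estimated reads, which limits their fold change. Calls in XVE:AXR3-1-RFP ended in some of the 12 fits without a single library for JKD (7), AT5G26270 (6), NPF3.1 (3), BAS1 and RSL2 (2 each) and AT2G40095, BRN2 and GH3.5 (1 each).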

Other observations

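MRD1 and AT5G50630, the genes called in HS:AXR3-1 whose difference was not called by edgeR without a block, were chosen here after their values were seen. MRD1 had 71.4, 59.7 and 63.5 CPM in HS:AXR3-1, against 1.27, 0 and 0.616 CPM in heat-shocked Col-0. It had 0.0593, 0.797 and 0.46 CPM in XVE:AXR3-1-RFP, against 0.743, 0.0443 and 0.58 CPM in estradiol-treated Col-0. All 3 HS:AXR3-1 libraries, replicate 1 included, held 1205 to 1542 estimated reads of MRD1, and no other library of the 4 groups held more than 27. The adjusted p was 0.00382 in HS:AXR3-1 and 0.0599 for the difference. MRD1 overlaps HEI10, a gene of meiotic recombination, over 86.8% of its length. HEI10 had 12, 12.1 and 14.1 CPM in HS:AXR3-1, against 10.2, 9.08 and 7.72 CPM in heat-shocked Col-0. Without a stated strand option, reads from the shared stretch cannot be assigned to either gene with certainty.

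AT5G50630, annotated as a major facilitator superfamily protein, had 39.6, 33.1 and 28.5 CPM in HS:AXR3-1, against 18.7 ± 1.23 CPM (SD, n = 3) in heat-shocked Col-0. It had 22.1, 21.9 and 20.3 CPM in XVE:AXR3-1-RFP, against 21.1, 19.6 and 21.2 CPM in estradiol-treated Col-0. The log2 effect was 0.85 (SE 0.12, adjusted p = 0.0137) in HS:AXR3-1, and its difference was called with the replicate block (adjusted p = 0.0467) and by DESeq2 (adjusted p = 0.00917). AT5G50520, a gene on the same chromosome, is identical to it over 100% of its length and is not listed as a separate gene in the files used, so both copies may be counted together. Of the tested genes around both copies, AT5G50530 and AT5G50650 had the smallest p-values in HS:AXR3-1 after AT5G50630. AT5G50530 had a log2 effect of 0.86 (SE 0.18, adjusted p = 0.199) there and AT5G50650 had 0.68 (SE 0.14, adjusted p = 0.204). Neither was called, and in each the HS:AXR3-1 libraries lay above every heat-shocked Col-0 library. The others, none of them called, ran from -1.6 (SE 1.9) for AT5G50580 to 1.08 (SE 0.4) for AT5G50660, with 0.34 (SE 0.9) for AT5G50640.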
